A study of Mus musculus with 8 samples.

Results

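The 10 genes described here are linked to TREM2-expressing, lipid-associated macrophages and were followed in bulk RNA sequencing libraries of the aorta: Trem2, Tyrobp, Gpnmb, Cd9, Cd63, Lgals3, Fabp5, Lpl, Lipa and Mmp27. They were taken by symbol from the deposited count tables, and all 10 were found among 25526 listed genes. The libraries came from male mice of the genotype Fbn1C1041G/+, which carry the C1041G allele of fibrillin-1 on one chromosome and model Marfan syndrome. One group of 4 mice was aged 12 weeks, when aneurysms grow, and the other group of 4 was aged 2 years, when growth had stopped per the series' design text. All 8 mice carried the allele, so the comparison is of age within mutant mice, and wild-type aortas were not analysed here. The labels name the tissue only as aorta, so each library is a mixture of the cell types of the dissected vessel.

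TREM2 is a surface receptor of macrophages that binds lipids and lipoproteins, and it signals through the adaptor TYROBP (also called DAP12) to the kinase SYK. Macrophages that take up much lipid, in atherosclerotic plaques and in adipose tissue, are known to express Trem2 together with genes for lipid uptake, lysosomal lipid breakdown and membrane trafficking. Most of those companion genes are also expressed outside macrophages. Cd9 and Cd63 are found in most cell types, Lpl is abundant in fat and heart muscle, and Fabp5 is found in fat and endothelium.

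Totals ranged from 16251986 to 33880690 counts per library. Levels are given as CPM, counts scaled to 1000000 per library, and log2 changes are 2 years over 12 weeks, from edgeR's quasi-likelihood test with Benjamini-Hochberg adjustment over the 13978 genes tested. Smooth muscle markers were abundant in all 8 libraries, with a sum over 8 genes of 29690 to 35320 CPM at 12 weeks and 16820 to 25800 CPM at 2 years. A pair of libraries stood apart. Replicate 3 at 12 weeks had the highest sum of 9 heart muscle markers (1341 CPM against 236.4 to 299.4 CPM in the other 12-week libraries) and of 12 adipocyte markers in its group. Replicate 3 at 2 years had the highest adipocyte sum of all and was the shallowest library, and its sum of 8 fibroblast markers was 8166 CPM against 3728 to 4874 CPM in the other 2-year libraries. Fold changes across all genes also moved with transcript length. The slope of centred log2 CPM on log2 length was 0.1253 to 0.2613 at 12 weeks and -0.3145 to -0.1075 at 2 years. Short transcripts were thus relatively higher in the 2-year libraries. The 10 genes were therefore also fitted with an offset for length and GC content, whose values are given where they ended a call or moved by over 1.5-fold.

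Of the 10 genes, 7 rose and 0 fell at 2 years (adjusted p below 0.05). Across all genes tested, 25.8% were called higher and 26.2% lower. The same 7 genes had no overlap between the groups' CPM values, a pattern found in 24.3% of all genes, and in 25.3% on the lower side. The genes that rose were Trem2, Tyrobp, Lgals3, Fabp5, Cd63, Lipa and Gpnmb, with log2 changes from 0.72 to 3.22, while Cd9, Lpl and Mmp27 did not pass the test. The median over the 10 genes was 0.83, against -0.01 over all genes. With the length and GC offset 5 of the 10 rose and 1 fell, beside 22.7% and 28% of all genes. With that offset and the replicate number as a block 6 rose and 1 fell, beside 19.8% and 24.8%. In bulk tissue, more cells of a type and more RNA per cell cannot be told apart.

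**Figure D1:**
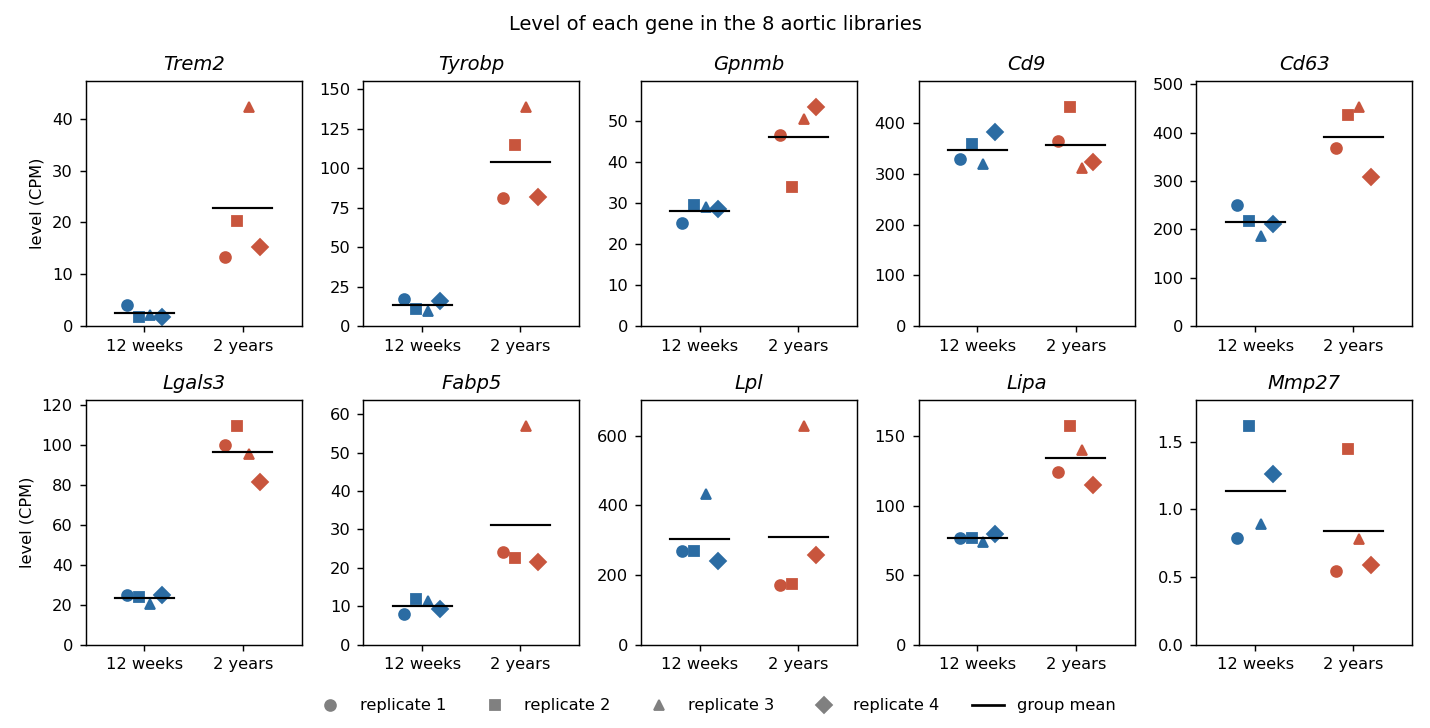
Level in CPM (vertical axes, linear, starting at 0) of each of the 10 genes in the 4 libraries at 12 weeks (blue) and the 4 at 2 years (red); symbols give the replicate number and black bars the group means. Trem2, Tyrobp and Lgals3 show wide gaps between the ages, while Cd9, Lpl and Mmp27 overlap and replicate 3 at 2 years is far above the others for Trem2, Fabp5 and Lpl.

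The receptor and its adaptor changed most. Trem2 was at 4.02, 1.81, 2.18 and 1.74 CPM at 12 weeks (replicates 1 to 4 in order, as throughout) and at 13.3, 20.3, 42.3 and 15.3 CPM at 2 years. Every 2-year library was above every 12-week library, and replicate 3 at 2 years was more than 2 times the next highest. The 12-week values rest on only 43 to 92 counts per library and the 2-year values on 441 to 650. The mean rose from 2.44 ± 1.07 to 22.8 ± 13.3 CPM (n = 4, SD), equal to 3.22 ± 0.43 SE on the log2 scale (edgeR, adjusted p = 0.000213), or to 2.61 with the length and GC offset. This change was at the 98.3 percentile of all genes tested. Leaving out replicate 3 at 2 years gave 2.74, and leaving out replicate 1 at 12 weeks gave 3.56.

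The 250 bases before the start of Trem2 are shown because this gene changed most of the 10. The sequence is RefSeq's for build GRCm38.p6 (chr17:48346151-48346400, plus strand), 5′ to 3′. Capitals mark matches to 2 short motifs. They are GAGGAA, the core recognised by PU.1 and other ETS factors, and TGANTCA, a loose form of the AP-1 site. Its N stands for any base, whereas the AP-1 consensus has C or G there.
Trem2: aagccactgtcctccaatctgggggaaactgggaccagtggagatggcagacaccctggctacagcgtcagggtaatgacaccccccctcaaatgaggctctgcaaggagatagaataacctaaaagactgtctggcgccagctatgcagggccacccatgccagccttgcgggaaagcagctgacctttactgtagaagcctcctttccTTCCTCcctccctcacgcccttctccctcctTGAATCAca
The GAGGAA match lay on the opposite strand, 40 bases before the start, and the TGANTCA match lay 9 bases before it. The latter reads TGAATCA, so it matches the loose form only and not the AP-1 consensus. Of 32851 promoter windows of this length, 23.25% held GAGGAA and 6.75% held TGANTCA on either strand, and the pair of E-box motifs that were also searched, CACGTG (6.02%) and CATGTG (12.25%), had no match here. A match is a string of letters and no evidence of binding.

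Tyrobp, the adaptor that carries the signalling motif for TREM2 and for several other myeloid and natural killer receptors, was at 17.4, 10.6, 9.54 and 15.7 CPM at 12 weeks and at 80.8, 115, 139 and 81.5 CPM at 2 years. The groups were far apart, with the lowest 2-year library more than 4 times the highest 12-week library. Its mean rose from 13.3 ± 3.84 to 104 ± 28.03 CPM (log2 change 2.97 ± 0.25 SE, edgeR, adjusted p = 5.52e-06), and the value was 1.94 with the length and GC offset. Tyrobp has the shortest transcript of the 10 genes, at 597 nt in GENCODE M21. With the offset the log2 changes of Trem2 and Tyrobp were 2.61 and 1.94. Raw Trem2 counts were also set against raw Tyrobp counts in each library, without a test. There were 18.5 ± 5.67 Trem2 counts for every 100 Tyrobp counts at 12 weeks and 20.9 ± 6.48 at 2 years (SD, n = 4), with overlapping ranges of 11.1 to 23.1 and 16.5 to 30.5. Natural killer cells also use Tyrobp, and all 9 tested genes of the natural killer and T cell list were called higher; the sum of its 10 genes was 3.36 to 5.28 CPM at 12 weeks and 34.3 to 56.5 CPM at 2 years. Their part in the Tyrobp result was not tested.

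Most of the signalling route below the receptor rose as well. Of 12 listed genes of TREM2 and TYROBP signalling, all tested, 9 rose and 0 fell, the median log2 change being 1.59, and the counts were the same with the length and GC offset. Syk, the kinase recruited by TYROBP, rose from 23.0 ± 2.23 to 54.0 ± 17.4 CPM (log2 change 1.23, edgeR adjusted p = 0.000449). Plcg2, the phospholipase activated below TREM2 in microglia, rose from 12.1 ± 2.26 to 32.6 ± 10.1 CPM (1.43, adjusted p = 0.000366). The largest absolute gain of the list was in Inpp5d, which encodes the inhibitory phosphatase SHIP1, from 16.1 ± 2.35 to 53.6 ± 6.90 CPM. Vav1, a signalling protein of blood cells, rose 5.83-fold with a narrow spread at both ages, 5.86 ± 0.652 and 34.2 ± 0.783 CPM. Hcst, the adaptor DAP10, went from 2 to 10 counts per library at 12 weeks to 37 to 79 at 2 years (log2 change 3.43, adjusted p = 0.000134, or 2.38 with the offset). Btk, Lcp2, Pik3cd and Lat2 rose 2.17-fold to 6.48-fold. The sheddases Adam10 and Adam17, which cleave TREM2 from the cell surface and are expressed by many cell types, were not called, at 0.05 ± 0.18 SE and -0.10 ± 0.12 SE on the log2 scale, and neither was Card9. These signalling genes are shared with lymphocytes and other myeloid cells, whose markers rose in the same libraries. All 8 B and plasma cell markers were called higher (summed level 110.3 to 140 CPM at 12 weeks and 444.7 to 1462 CPM at 2 years). Most of the 12-week sum was Xbp1, at 108.6 to 137.6 CPM, and at 198.8 to 234.1 CPM at 2 years. Jchain went from 0.111 to 0.262 CPM at 12 weeks to 208.3 to 1095 CPM at 2 years, and Mzb1 had 0 counts at 12 weeks. Also called higher were the 3 tested of 8 neutrophil markers (2.77 to 3.81 and 8.19 to 47.03 CPM) and 7 tested of 8 red blood cell markers (443.2 to 725.9 and 1779 to 7953 CPM). The part of all these cells in the signalling and receptor results was not tested.

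Other receptors listed as using TYROBP moved with it, except for Siglech. The use of TYROBP by each listed receptor was not checked here. Of 12 listed, 9 were tested, 8 rose and 1 fell. Clec5a, a myeloid lectin receptor, rose from 3.88 ± 0.681 to 16.3 ± 1.35 CPM (log2 change 2.06 ± 0.16 SE, edgeR, adjusted p = 3.51e-06). Cd300ld was at 12.0 ± 1.06 and 34.1 ± 7.61 CPM (1.51, adjusted p = 3.68e-05), and the natural killer receptor Klrk1 at 0.594 ± 0.37 and 5.71 ± 1.63 CPM (3.27, adjusted p = 0.000204). Trem1, the inflammatory relative of Trem2, had 4 counts in 1 of the 12-week libraries and 0 in the other 3, against 43 to 132 counts at 2 years. Siglech, a receptor of plasmacytoid dendritic cells and microglia, fell from 3.35 ± 0.192 to 1.49 ± 0.745 CPM (-1.19, adjusted p = 0.0143).

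Genes for proteins described as TREM2 ligands showed no common direction. Apoe, which encodes the apolipoprotein most often linked to TREM2, was at 658, 594, 564 and 696 CPM at 12 weeks and at 461, 488, 1289 and 1005 CPM at 2 years. The 2-year libraries lay on both sides of the 12-week range, and Apoe was not called (log2 change 0.37 ± 0.30 SE, edgeR, adjusted p = 0.33). Clu, clusterin, fell from 880 ± 32.2 to 454 ± 162 CPM (-0.95, adjusted p = 0.00438). C4b rose 2.93-fold. Of 5 tested ligand genes, 3 rose and 1 fell; Anxa1, one of the 3, was at 0.41 and was no longer called with the offset (-0.10).

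Lgals3 encodes galectin-3, a secreted lectin long used as a macrophage activation marker under the name Mac-2. It was at 24.7, 23.7, 20.04 and 24.6 CPM at 12 weeks and at 99.9, 109, 95.2 and 81.1 CPM at 2 years. The gap between the groups was wide against a spread of at most 1.35-fold within either group. The mean went from 23.3 ± 2.2 to 96.4 ± 11.8 CPM (log2 change 2.05 ± 0.14 SE, edgeR, adjusted p = 1.5e-06, with 1.57 under the length and GC offset). RefSeq's 250 bases before its start held none of the 4 motifs.

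Gpnmb encodes a transmembrane glycoprotein of lysosomes and melanosomes that is induced in lipid-laden macrophages. Its levels were 25.2, 29.5, 29.0 and 28.6 CPM at 12 weeks and 46.8, 33.9, 50.6 and 53.5 CPM at 2 years. The groups did not overlap, but replicate 2 at 2 years lay only just above the 12-week range. Its mean rose from 28.1 ± 1.95 to 46.2 ± 8.66 CPM (log2 change 0.72 ± 0.15 SE, edgeR, adjusted p = 0.00209), a 1.65-fold change that the length and GC offset left at 0.72. Melanocytes express Gpnmb strongly. Their defining markers Pmel, Dct, Mlana, Tyrp1 and Tyr were below the expression filter in these libraries, with at most 23 counts for any of them in any library. Over the whole melanocyte and Schwann cell list of 10 genes, 5 were tested, 2 rose and 1 fell (1 and 1 with the offset, which ended the call of S100b), and the summed level was 21.1 to 39.2 CPM at 12 weeks and 41.5 to 63.9 CPM at 2 years; the part of these cells in the Gpnmb result was not tested.

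Cd63 and Cd9 are tetraspanins, small membrane proteins that organise signalling platforms and, for CD63, late endosomes and lysosomes. Cd63 passed the test and Cd9 did not; the difference between the pair was not tested. Cd63 was at 250, 216, 185 and 210 CPM at 12 weeks and at 368.2, 436.1, 452.2 and 307.1 CPM at 2 years. The groups did not overlap, and the mean rose from 215 ± 26.7 to 391 ± 66.7 CPM (log2 change 0.86 ± 0.16 SE, edgeR, adjusted p = 0.000972). Under the offset the value was 0.12 (SE 0.11) and Cd63 was no longer called (adjusted p = 0.404, with 5.22e-07 to 0.492 over all alternatives). Cd9 was at 329, 359, 321 and 382 CPM at 12 weeks and at 366, 432, 312 and 325 CPM at 2 years. These ranges overlapped almost fully, with means of 348 ± 28.2 and 358 ± 54.2 CPM and a log2 change of 0.04 ± 0.14 SE (adjusted p = 0.81). With the offset Cd9 was at -0.66 and called lower (adjusted p = 0.00117). Both transcripts are short, at 1109 nt for Cd63 and 1228 nt for Cd9. GENCODE M21 annotates a pseudogene of each, and transcripts antisense to Cd9, so the counts of both genes are uncertain.

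The upstream windows of this pair are set side by side because the genes belong to one family and only Cd63 was called without the offset. With the length and GC offset only Cd9 was called, and lower. Capitals mark GAGGAA in Cd63, on both strands, and CATGTG on the opposite strand in Cd9, from RefSeq's GRCm38.p6 promoters (chr10:128909095-128909344, plus strand; chr6:125494761-125495010, minus strand).
Cd63: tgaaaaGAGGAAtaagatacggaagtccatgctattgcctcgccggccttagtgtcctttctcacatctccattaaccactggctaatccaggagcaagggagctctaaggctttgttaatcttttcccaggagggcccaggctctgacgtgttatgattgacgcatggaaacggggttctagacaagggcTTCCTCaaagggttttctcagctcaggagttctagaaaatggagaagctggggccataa
Cd9: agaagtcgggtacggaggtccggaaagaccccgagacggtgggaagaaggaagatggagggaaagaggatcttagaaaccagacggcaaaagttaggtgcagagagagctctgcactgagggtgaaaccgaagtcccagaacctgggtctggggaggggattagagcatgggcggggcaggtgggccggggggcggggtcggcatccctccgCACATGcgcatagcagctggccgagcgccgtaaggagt
The Cd9 window is richer in G and C, at 61.6% with 16 CpG dinucleotides, than the Cd63 window, at 48.8% with 6. The medians over all promoter windows were 52.4% and 6.

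Among 12 other tetraspanins, all tested, 8 rose and 1 fell. The largest change was that of Cd53, a leukocyte tetraspanin, from 13.1 ± 1.76 to 115 ± 23.2 CPM (log2 change 3.13 ± 0.18 SE, edgeR, adjusted p = 7.35e-07), and Cd37, also of leukocytes, and Cd82 rose by 1.62 and 1.52. Cd81, which like Cd9 is found in most cells, was at 406 ± 36.2 and 479 ± 29.6 CPM and was not called (0.24, adjusted p = 0.13), but was at -0.25 and called lower with the offset. Tspan2, abundant in smooth muscle, fell from 363 ± 49.3 to 183 ± 54.7 CPM (-0.99, adjusted p = 0.00319). Under the offset 6 of the list rose and 2 fell.

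Of the 3 genes for lipid handling, Fabp5 and Lipa rose and Lpl was not called. Fabp5, a carrier of fatty acids in the cytosol, was at 7.99, 12.0, 11.3 and 9.36 CPM at 12 weeks and at 23.98, 22.4, 57.0 and 21.6 CPM at 2 years. Of the 2-year libraries 3 lay close together and replicate 3 was far above them. The mean rose from 10.2 ± 1.82 to 31.3 ± 17.2 CPM (log2 change 1.61 ± 0.32 SE, edgeR, adjusted p = 0.00182). Without replicate 3 at 2 years it was 1.16 and still called (adjusted p = 0.000201). Under the offset it was 0.75 and just missed the threshold (adjusted p = 0.0501; 1.2e-06 to 0.0501 over all alternatives). GENCODE M21 annotates the copy Fabp5l2, so the counts of Fabp5 are uncertain. Its relative Fabp4, the adipocyte form, was at 128 ± 97.6 and 256 ± 148 CPM and was not called (adjusted p = 0.164).

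Lipa encodes lysosomal acid lipase, which frees cholesterol and fatty acids from the esters that macrophages take up. It was at 76.6, 76.5, 74.0 and 79.9 CPM at 12 weeks and at 124, 158, 140 and 115 CPM at 2 years. The 12-week libraries agreed within 1.08-fold and all 2-year libraries were higher. Lipa rose from 76.8 ± 2.44 to 134 ± 18.7 CPM (log2 change 0.81 ± 0.13 SE, edgeR, adjusted p = 0.000354), and all alternatives called it higher, with adjusted p from 3.46e-09 to 0.00713. Its upstream window (chr19:34527475-34527724, minus strand, GRCm38.p6, RefSeq) is shown as the counterpart to Trem2, with GAGGAA in capitals.
Lipa: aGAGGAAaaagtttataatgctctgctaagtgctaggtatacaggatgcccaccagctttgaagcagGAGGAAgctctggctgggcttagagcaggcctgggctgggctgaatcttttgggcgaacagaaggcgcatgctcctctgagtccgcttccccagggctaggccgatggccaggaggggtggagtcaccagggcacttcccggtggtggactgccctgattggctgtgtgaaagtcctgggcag
Both matches lay on the same strand as the gene, 249 and 183 bases before the start, whereas the match in Trem2 was close to the start and on the other strand. Of the 10 genes, 7 had a promoter entry, and GAGGAA was found in the windows of Trem2, Cd63 and Lipa; Gpnmb, Lgals3 and Mmp27 had no match to any of the 4 motifs.

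Lpl, lipoprotein lipase, hydrolyses the triglycerides of circulating lipoproteins. It was at 267, 268, 433 and 241 CPM at 12 weeks and at 172, 173, 628 and 256 CPM at 2 years. The highest library of each group was its replicate 3, and the means of 302 ± 88.2 and 307.3 ± 217.5 CPM were close (log2 change 0.02 ± 0.42 SE, edgeR, adjusted p = 0.967). Without replicate 3 at 2 years the log2 change was -0.60 and Lpl was called lower (adjusted p = 0.0454). Without both libraries numbered 3 it was -0.36 and not called (adjusted p = 0.118). Adipocyte markers were also highest in those libraries: the sum of 12 genes was 256.1, 398.4, 1517 and 576.6 CPM at 12 weeks and 670.3, 1274, 1799 and 702.8 CPM at 2 years. Of the 12, 2 were called higher (Retn and Cfd) and 0 lower, and with the offset none was called, Retn being at 0.54 and Cfd at 0.75. Adipoq, which defines adipocytes, ranged from 9.52 to 122 CPM. The part of fat and heart tissue in the Lpl values was not tested.

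**Figure D2:**
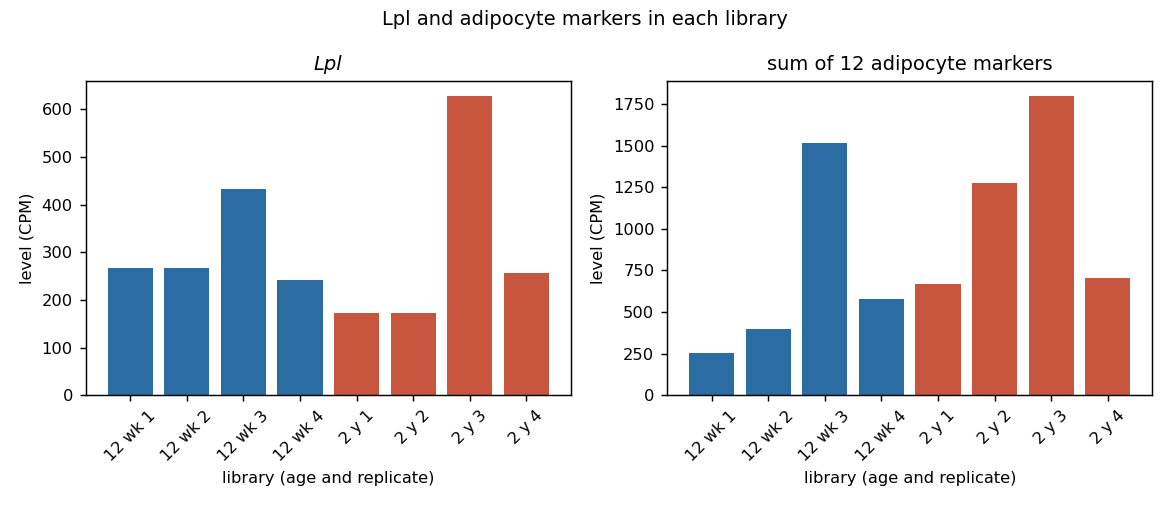
Level in CPM of Lpl (left) and of 12 adipocyte markers summed (right) in each library, 12 weeks in blue and 2 years in red, bars from 0. Replicate 3 is the highest library of its age in both panels, at 433 and 628 CPM for Lpl and 1517 and 1799 CPM for the marker sum, while replicate 2 at 2 years has a high marker sum of 1274 CPM beside a low Lpl level of 173 CPM.

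Few of the genes for proteins that serve LPL were called in the edgeR test. Of 15 listed genes 11 were tested, 1 rose and 2 fell. Angptl4, a secreted inhibitor of LPL, rose from 18.3 ± 6.04 to 38.1 ± 9.49 CPM (log2 change 1.06 ± 0.24 SE, edgeR, adjusted p = 0.0037). Vldlr, a lipoprotein receptor that works with LPL in muscle and fat, fell from 204 ± 33.1 to 79.7 ± 11.8 CPM (-1.36, SE 0.16, adjusted p = 5.85e-05). Sort1, a sorting receptor, fell 1.28-fold and was not called with the offset (0.10). Gpihbp1, which anchors LPL to the capillary wall, was at 1.38 ± 1.32 and 3.85 ± 2.77 CPM and was not called (adjusted p = 0.101). The number of genes called higher on this list varied from 1 to 5 over the alternatives.

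Mmp27 encodes a metalloproteinase described in a subset of tissue macrophages. It was the least abundant of the 10, with 18 to 42 counts per library at 12 weeks and 12 to 34 at 2 years. Its levels were 0.786, 1.62, 0.887 and 1.26 CPM at 12 weeks and 0.542, 1.45, 0.78 and 0.59 CPM at 2 years. The ranges overlapped and Mmp27 was not called (log2 change -0.45 ± 0.41 SE, edgeR, adjusted p = 0.381); its coefficient of variation was 33.3% at 12 weeks and 49.9% at 2 years. Of the 9 other metalloproteinase genes listed for the same gene cluster, 3 were tested and all 3 rose: Mmp3 5.84-fold, Mmp13 8.4-fold and Mmp12, the macrophage elastase, 2.8-fold (adjusted p = 0.0158).

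**Figure D3:**
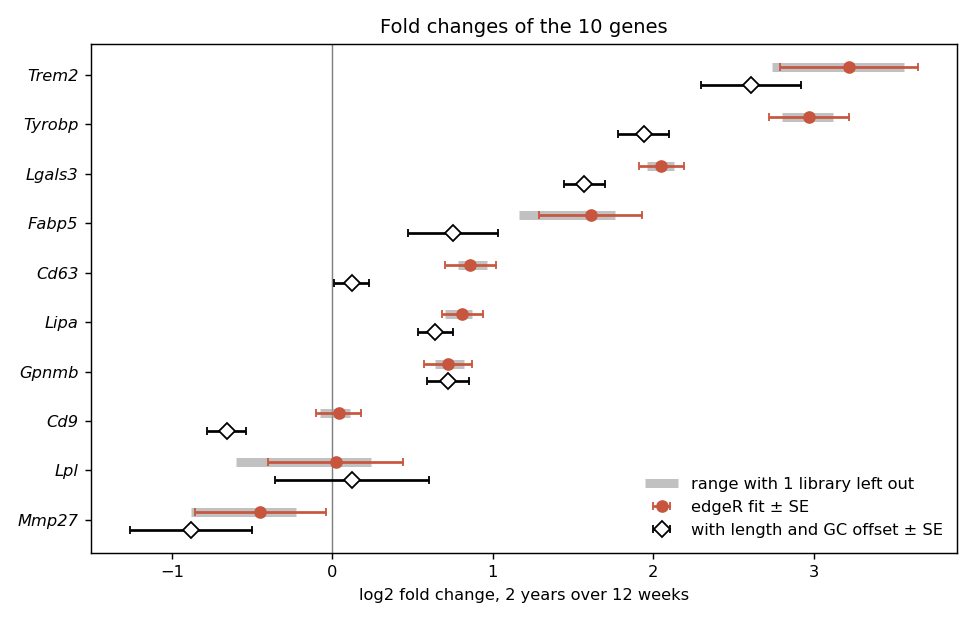
Log2 fold change of each gene, 2 years over 12 weeks (horizontal axis): red circles give the edgeR value with its SE, grey bands the range when 1 library is left out, and open diamonds the value with the length and GC offset and its SE. The offset moves Tyrobp from 2.97 to 1.94, Cd63 from 0.86 to 0.12 and Cd9 from 0.04 to -0.66, leaves Gpnmb at 0.72, and the grey band of Lpl runs from -0.60 to 0.24.

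Compared per kilobase of transcript, the order of the 10 genes changed between the ages. At 12 weeks Cd9 was highest, at 283 ± 23.0 CPM per kb, then Cd63 (194 ± 24.1), Lpl (73.4 ± 21.4), Lipa (25.9 ± 0.823), Tyrobp (22.3 ± 6.43), Lgals3 (16.4 ± 1.55), Fabp5 (10.3 ± 1.85), Gpnmb (7.58 ± 0.527), Trem2 (2.24 ± 0.984) and Mmp27 (0.597 ± 0.199). Lipa and Tyrobp, and Tyrobp and Lgals3, lay within the larger SD of each pair. At 2 years the order was Cd63 (353 ± 60.1), Cd9 (292 ± 44.2), Tyrobp (174 ± 47.0), Lpl (74.7 ± 52.9), Lgals3 (67.9 ± 8.32), Lipa (45.2 ± 6.29), Fabp5 (31.7 ± 17.4), Trem2 (20.95 ± 12.2), Gpnmb (12.5 ± 2.34) and Mmp27 (0.442 ± 0.22). Tyrobp thus moved up to follow Cd63 and Cd9, and Trem2 stood above Gpnmb on this scale of level, although by less than the SD of Trem2. Lpl and Lgals3, Lipa and Fabp5, and Fabp5 and Trem2 also differed by less than the larger SD of each pair. The length used was that of the longest protein-coding transcript of each symbol, and these levels carry no length and GC offset. With the offset the log2 change went from 2.97 to 1.94 for Tyrobp and from 3.22 to 2.61 for Trem2, and stayed at 0.72 for Gpnmb. The part of the length trend in the new order was not tested.

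Macrophage genes at large rose in the same libraries. Of 15 macrophage core genes that are not among the 10, 14 rose and 0 fell (median log2 change 2.32), and their summed level went from 865 to 1207 CPM at 12 weeks to 3073 to 4320 CPM at 2 years. To place the 10 genes against this, the mean log2 CPM of the core was subtracted from each gene's log2 CPM in the same library. The core mean was 5.23 ± 0.21 at 12 weeks and 7.30 ± 0.09 at 2 years (SD, n = 4), so a gene that did not change would fall by about 2.07 on this relative scale. No overlap on the lower side was found for 89.2% of all genes tested, and on the higher side for 1.46%. These relative values are a description, without a test. Among the core genes Mertk was not called (log2 change -0.4, edgeR adjusted p = 0.0854). Ptprc, Itgam and Fcer1g are also core genes here and are expressed by other leukocytes too. The part of those cells in the core mean was not tested.

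On the relative scale the 10 genes formed a gradient. Tyrobp was at -1.84 to -1.25 at 12 weeks and at -0.89 to -0.29 at 2 years, higher without overlap. Trem2 was at -4.36 to -3.43 and at -3.48 to -2.0, higher in the mean by 1.04 with a small overlap. Lgals3 kept its place, at -0.69 ± 0.11 and -0.71 ± 0.16, and Fabp5 overlapped (-1.89 ± 0.44 and -2.46 ± 0.60). The other 6 were lower without overlap, as most genes were. Cd63, Lipa and Gpnmb were lower by 1.22, 1.28 and 1.37 in the mean, less than the shift of the core itself, and Cd9, Lpl and Mmp27 by 2.04, 2.23 and 2.52. The relative scale carries no length and GC offset. With the offset the log2 changes were 1.94 for Tyrobp, 2.61 for Trem2 and 1.57 for Lgals3, beside a core median of 1.81. Without it they were 2.97, 3.22 and 2.05, beside 2.32. How far the length trend entered the gradient was not tested.

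**Figure D4:**
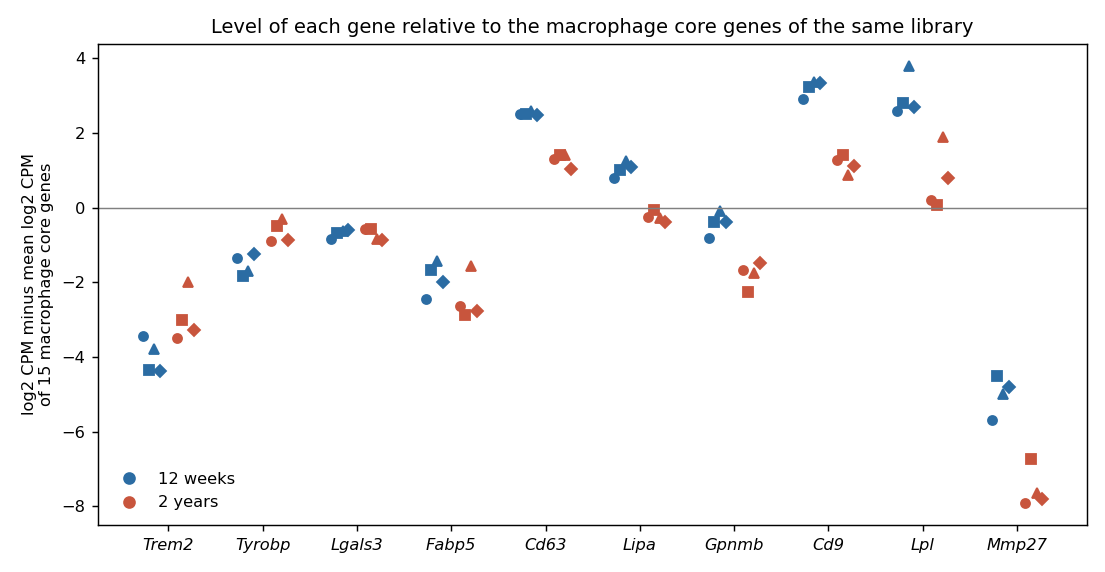
Log2 CPM of each gene minus the mean log2 CPM of 15 macrophage core genes in the same library (vertical axis); each symbol is a library, blue at 12 weeks and red at 2 years, and genes are ordered by the difference of the means. Tyrobp and most Trem2 points are higher at 2 years, Lgals3 is level, and the genes from Cd63 rightward are lower without overlap.

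Other genes often listed for lipid-associated macrophages mostly rose. Of 18, all tested, 14 rose and 0 fell, the median log2 change being 1.11; with the length and GC offset 11 rose. Spp1, osteopontin, was at 17.4, 9.08, 1.85 and 1.66 CPM at 12 weeks and at 381, 464, 505 and 179 CPM at 2 years, a wide separation despite large spread at both ages (log2 change 5.68 ± 0.87 SE, edgeR, adjusted p = 0.00105, or 5.08 with the offset). Itgax, which encodes CD11c, rose from 8.09 ± 1.72 to 43.2 ± 11.3 CPM (2.42, adjusted p = 1.09e-05). Olr1, the oxidised LDL receptor LOX-1, rose from 0.335 ± 0.0752 to 4.36 ± 1.87 CPM (3.67, adjusted p = 6.14e-05), and Plin2, which coats lipid droplets, rose 2.28-fold. The scavenger receptor Cd36 (0.39, adjusted p = 0.383), Fabp4 and the cathepsin Ctsd (0.36, adjusted p = 0.105) were not called. Apoe, given above, is also on this list. Cstb and Lgals1 were called higher, at 1.11 and 0.75, but were at 0.01 and -0.06 with the offset.

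Genes of lysosomal lipid handling rose in part. Of 17 genes, all tested, 11 rose and 0 fell, the median log2 change being 0.45. Npc2, which carries cholesterol inside the lysosome, rose from 138 ± 13.4 to 379 ± 80.1 CPM (1.46, SE 0.16, edgeR adjusted p = 3.86e-05), while its membrane partner Npc1 was at 63.7 ± 6.14 and 59.8 ± 6.35 CPM and was not called (-0.09, adjusted p = 0.573). Cholesterol export genes were called in part. Abcg1 rose from 6.48 ± 1.94 to 20.8 ± 3.95 CPM (1.68, adjusted p = 0.000163), and Abca1 was at 83.0 ± 17.9 and 82.9 ± 16.6 CPM (0.00, SE 0.19) but was at 0.80 and called with the offset (adjusted p = 0.0151). Whether Abcg1 and Abca1, or Npc2 and Npc1, differed in their response was not tested. Gm2a, a cofactor of ganglioside breakdown, rose 1.89-fold.

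Transcription factors described for these genes showed calls for several macrophage factors and none for the broadly expressed MiT family members. Of 11, all tested, 6 rose and 0 fell. Spi1, which encodes PU.1, rose from 7.86 ± 1.02 to 42.6 ± 4.88 CPM (log2 change 2.44 ± 0.14 SE, edgeR, adjusted p = 7.74e-07). Nr1h3 (the liver X receptor alpha) rose 2.08-fold and Cebpb 1.84-fold. Pparg (0.72, adjusted p = 0.0678, or 0.38 with the offset) and Nr1h2 (-0.17, adjusted p = 0.354) were not called. Mitf (-0.15, SE 0.15), Tfeb (-0.03, SE 0.14) and Tfe3 (0.14, SE 0.12), regulators of lysosomal genes, were not called; Tfe3 was called with the offset (adjusted p = 0.0314). Their myeloid relative Tfec was at 0.799 ± 0.298 and 1.9 ± 0.259 CPM (1.25, adjusted p = 0.0109) and was not called with the offset (0.77).

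**Figure D5:**
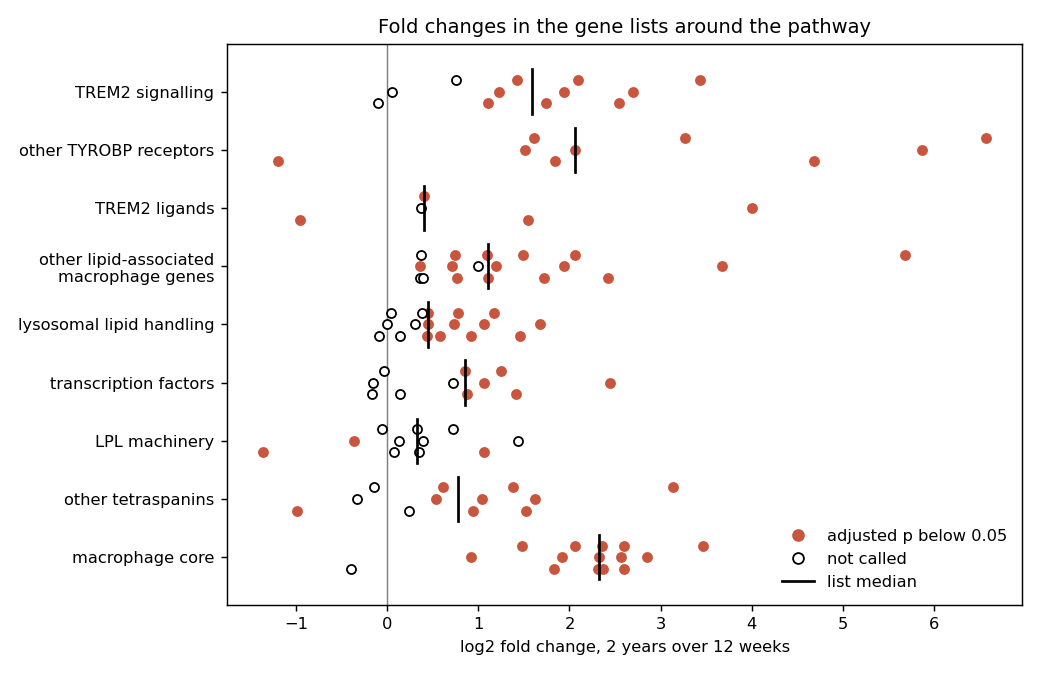
Log2 fold changes, 2 years over 12 weeks (horizontal axis), of the tested genes of 9 lists; filled red points have an adjusted p below 0.05, open points do not, and vertical black bars are list medians. The macrophage core (median 2.32), other TYROBP receptors (2.06) and TREM2 signalling (1.59) lie farthest to the right. The LPL machinery (0.33), TREM2 ligands (0.41) and lysosomal lipid handling (0.45) lie nearest to 0.

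Among 13222 genes averaging 1 CPM or more, the genes whose profile over the 8 libraries lay closest to that of Trem2 were H2ac24, Cd3g, Cyp7b1, Clec4n and Cst7. Likeness was the root mean square difference of log2 CPM, each gene centred on its own mean, and ran from 0.304 for the histone gene H2ac24 to 0.367 for Cst7, which encodes the lysosomal protease inhibitor cystatin F. Clec4n is the macrophage lectin receptor dectin-2, Cd3g a T cell receptor subunit and Cyp7b1 an oxysterol hydroxylase. Clec4n went from 2.59 ± 0.678 to 24.9 ± 12.0 CPM (3.26, or 2.54 with the offset) and, like Trem2, was highest in replicate 3 at 2 years, at 41.3 CPM. H2ac24 has near-identical relatives and its counts are uncertain. Of the other 9 genes followed here Tyrobp was the closest to Trem2, at 0.391 and rank 12, then Lgals3 at 0.772 and rank 315, Fabp5 at 0.946 and rank 627, Cd63 at 1.215 and rank 1517, Lipa, Gpnmb, Cd9 and Lpl; Mmp27 was not ranked because its mean was below 1 CPM. With 4 libraries at each age, this measure is set mainly by the size of the age difference.

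The libraries of one age also differed among themselves, most of all at 2 years. The coefficient of variation at 2 years was 70.8% for Lpl, 58.4% for Trem2, 55.0% for Fabp5 and 49.9% for Mmp27, and 12.25% to 26.97% for the other 6. Replicate 3 was the highest 2-year library for 5 of the 10 genes, Trem2, Tyrobp, Cd63, Fabp5 and Lpl, replicate 2 for 4 and replicate 4 for 1. In replicate 3 the summed level of 8 resident macrophage markers was 4145 CPM, against 2129 to 2483 CPM in the other 2-year libraries, but Gas6 alone was at 3339 CPM there against 1367 to 1713 CPM. The 7 markers without Gas6 summed to 805.7 CPM in replicate 3, within the 761.9 to 870.8 CPM of the others. Of the 8, 4 rose and 0 fell, while with the offset 3 rose and 1 fell (Cbr2, at -0.78). Smooth muscle markers were lowest in replicate 3, at 16820 CPM, and fibroblast markers highest, as given above. The part of these markers in the Trem2 and Fabp5 values of that library was not tested.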

How the data were processed

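Aortic RNA of 8 mutant male mice, 4 per age group, was measured by bulk RNA sequencing, and samples were grouped by the ages in their titles. The deposited values are raw counts per gene symbol, 1 table per library, per the labels and the file headers; 25526 genes are listed in each. The submitters' processing notes name the genome build GRCm39. No source used here gives the aligner, counting tool, annotation or strand handling, so counts of gene copies and overlapping genes are uncertain. Sample index numbers in the file headers run in separate blocks for the ages, so batches of handling cannot be told apart from age.

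Genes passing filterByExpr (13978) were scaled by TMM and tested with edgeR 4.0.16 (quasi-likelihood F test, robust, age as the only term) in R 4.3.3; adjusted p-values are Benjamini-Hochberg over all tested genes, with calls below 0.05. CPM uses TMM-scaled sizes, and log2 CPM a prior count of 2. The length and GC offset removes a per-library trend on both (natural splines, 4 degrees of freedom each) and uses GENCODE M21, the older GRCm38 build, by symbol. Alternatives also used limma 3.58.1 and DESeq2 1.42.0. The pipeline was tested on simulated data. Pairs of libraries within an age had a chi-square per degree of freedom of 23.5 to 150.5, so none was treated as a copy. The 10 genes, the gene lists and the tests were chosen with earlier results of these data known. Named from each list were up to 4 called genes with the smallest p, or up to 2 of the highest CPM where none was called; the 5 genes most like Trem2 were also named. Other list members named beside these, among them Adam10, Adam17, Npc1, Abca1, Cd81 and the MiT factors, fall outside it and were picked with their values in view. Protein sequences were not used here, and some named genes are not reported here. P-values weigh the difference between the age groups against the spread between the mice of each group.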

Additional observations from a re-analysis of the deposited data

Results flagged for a closer look

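Within-group values of the 10 genes in CPM were checked for a library whose gap to the next, divided by the group's range, was above Dixon's critical value for 4 samples at the 95% level. Of 20 groups checked, 2 were past it, where chance gives about 1 in 20. Fabp5 in 2 years replicate 3 was at 57.0 CPM, far above the other 2-year libraries at 21.6 to 23.98 CPM. Lpl in 12 weeks replicate 3 was at 433.1 CPM, against 240.8 to 267.5 CPM in the other libraries of that age. Both libraries had the highest adipocyte marker sum of their age, at 1799 and 1517 CPM, and the part of those markers in the values was not tested.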

How the results depend on the processing

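Of the 17 alternatives, the count of the 10 genes called higher stayed at 7 except with the length and GC offset (5) and that offset with the replicate block (6). Genes called lower numbered 0, or 1 with the offset (Cd9), with the offset and block (Cd9) and without 2 years replicate 3 (Lpl), so leaving out 1 library gave 0 to 1. With the replicate block alone 7 of the 10 rose; the replicate numbers did not pair the samples, with correlations of deviations of -0.308 to 0.051. The LPL machinery had 1 gene higher, against 4 with DESeq2, 5 without both libraries numbered 3, 3 with the block, 2 with the offset, offset and block, limma voom, no filter and upper quartile scaling, and 1 to 5 without 1 library; it had 2 lower, against 1 without both libraries numbered 3, with the offset, offset and block, block and upper quartile scaling, and 1 to 2 without 1 library. Tetraspanins had 1 lower, against 2 with the offset and without both numbered 3, and 1 to 2 without 1 library (2 without 2 years replicate 3). The macrophage core had 0 lower, and 0 to 1 without 1 library (1 without 2 years replicate 4).

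Direction reversed in 19 of 1630 values of the 96 named genes, and 75 genes kept call and direction throughout. Cd9 was at -0.66 with the offset, -0.67 with offset and block, and -0.08 to 0.11 without 1 library. Lpl was at -0.36 without both numbered 3, -0.12 with offset and block, -0.13 with voom, -0.16 with the block, and -0.60 to 0.24 without 1 library. With the offset, and with offset and block, Anxa1 was at -0.10 and -0.11, Sort1 at 0.10 and 0.09, Fabp3 at -0.66 and -0.54, and Lgals1 at -0.06 in both. The cause was not tested. Counts were lowest for Mmp27, at 12 to 42 per library, and for Trem2 at 12 weeks, at 43 to 92; depth and spread between mice were not separated.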
